A study of Mus musculus with 12 samples.

Results

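The effect of a Tet2 knockout (KO) on gene expression was compared between 2 blood progenitor populations of mouse bone marrow, labelled LSK and MPP. The libraries described as MPP carry Lin in place of MPP in their titles and count columns. The comparison rests on 8 of the 12 RNA sequencing libraries of the series, namely LSK KO, LSK wild type (WT), MPP KO and MPP WT with 2 libraries each, and the question put to each gene was whether its difference between KO and WT was the same in both populations. The other 4 libraries, from mice labelled Tet2 Mut, served to estimate the spread and in a single comparison below. All mice were of a mixed 129/C57/B6 background and 10 weeks old. The marrow of 2 mice of a genotype was pooled before sorting, and the replicates of a group are technical libraries from that pool, so every error and p-value here measures the spread between libraries and not between mice. A difference between the pools that has no link to Tet2 cannot be told apart from an effect of the genotype.

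Tet2 is a dioxygenase that oxidises methylated cytosine in DNA, and its loss in blood stem cells is known to skew blood formation towards the myeloid lineages. LSK cells are negative for lineage markers and positive for Sca-1 (encoded by Ly6a) and Kit, and they hold the stem cells and the earliest multipotent progenitors. Multipotent progenitors (MPP) have lost long-term self-renewal but still give rise to several lineages. Granule proteins, such as myeloperoxidase (Mpo) of the neutrophil and monocyte lineages and eosinophil peroxidase (Epx) of eosinophils, are made as progenitors commit to those lineages and are kept low in stem cells.

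Gene counts in the 8 libraries ranged from 9181030 to 17220400, so that 3 counts, taken as the floor for a count of 0, correspond to 0.166 to 0.317 CPM, the read count scaled to library size. Tet2 itself was at 29.2 and 31.7 CPM in LSK KO, against 87.3 and 62.7 CPM in LSK WT, and at 34.9 and 34.9 CPM in MPP KO, against 39.6 and 29.4 CPM in MPP WT. Counts over the gene were thus lower in LSK KO (2.46-fold, edgeR adjusted p = 0.046) and level in MPP KO. The KO effect in LSK minus that in MPP was -1.31 on the log2 scale. That difference was not below the threshold of 0.05 (edgeR interaction test, adjusted p = 0.198). The part of the gene that the knockout removes is not given in the sources used here, so counts over the whole gene do not check the label of the libraries labelled MPP KO, and MPP KO below stands for that label. The MPP libraries had little Flt3 (79.2 to 98.4 CPM, against 863 to 1143 CPM in LSK) and Ly6a (10.4 to 17.6 CPM, against 58.4 to 163 CPM in LSK) and contained RNA of the T cell marker Cd3e (10.5 to 18.5 CPM), which goes against the usual markers of multipotent progenitors; MPP is used below as the label only. Fewer genes were detected in LSK WT than elsewhere, its libraries having 12470 to 12614 detected genes, against 13597 to 14264 in the other 6, and correlating with each other at r = 0.879 across genes, against 0.957 to 0.968 within the other groups. In bulk libraries, fewer cells of a type and less RNA per cell cannot be told apart.

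The KO effect differed between the populations in 102 of 14033 genes tested (0.727%; edgeR quasi-likelihood test of the interaction, Benjamini-Hochberg adjusted p below 0.05; 1734 genes had an unadjusted p below 0.05). The difference is coded as the KO effect in LSK minus the KO effect in MPP on the log2 scale. It was positive for 80 genes (0.57% of those tested), called higher here, and negative for 22 (0.157%), called lower. Of the 1734 genes at an unadjusted p below 0.05, it was positive for 1115 and negative for 619. All 80 higher genes had a higher level in LSK KO than in LSK WT, and 68 of them had a lower level in MPP KO than in MPP WT. Of the 22 lower genes, 21 were lower in LSK KO than in LSK WT. The KO effect was larger in LSK than in MPP for 92 of the 102 genes. Over all genes tested the median absolute log2 effect was 0.484 in LSK, against 0.302 in MPP. This measure also rises with the spread between libraries, which agreed least in LSK WT (r = 0.879). For scale, KO and WT differed in 272 genes in LSK (1.94%; 211 higher and 61 lower in KO) and in 15 genes in MPP (0.107%; 7 higher and 8 lower in KO). Across all genes the effects in LSK and in MPP, which share no library, had a correlation of r = 0.0332 (Pearson, over genes, which are not independent replicates).

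**Figure D1:**
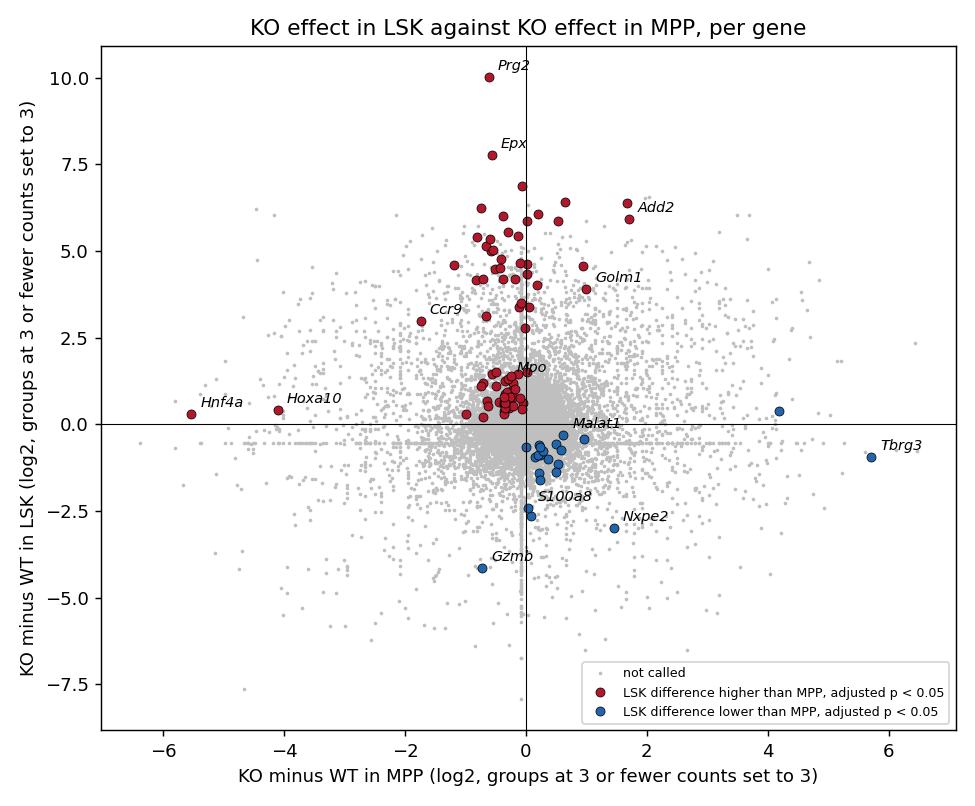
Each point is a gene, with its log2 difference of KO from WT in MPP on the horizontal axis and in LSK on the vertical axis, groups at 3 or fewer counts being set to 3 counts. The 80 genes called higher (red) lie above the horizontal line and mostly left of the vertical one, the 22 called lower (blue) mostly below and to the right, and the genes not called (grey) show no common direction.

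Effects of opposite sign were common among the called genes. The fitted KO effects had opposite signs for 87 of the 102 genes, against 52.5% of all genes tested, and since a gene with opposed effects has a larger difference, this excess follows in part from the call itself. In 69 of the 102, both KO libraries lay on one side of both WT libraries in LSK and on the other side in MPP, against 8.62% of all genes. In 38 of the 102, the unadjusted p was below 0.05 in each population with effects opposed, against 0.812% of all genes; 30 of them were higher in LSK KO and lower in MPP KO, and 8 the reverse. The excess in the counts of 69 and of 38 likewise follows in part from the call. Only Mpo and Malat1 passed the adjusted threshold in LSK and in MPP with opposite signs. With the spread taken from the 8 KO and WT libraries alone, edgeR called 0 genes in MPP (578 at an unadjusted p below 0.05; 100 called by DESeq2 on 12 libraries), so the calls of Mpo and Malat1 in MPP were lost. In 3 genes, Add2, Golm1 and Otub2, the effects had the same sign with an unadjusted p below 0.05 in both and differed in size.

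Mpo, the peroxidase of azurophil granules and one of the most abundant transcripts of committed myeloid progenitors, reversed its KO effect. It was at 3998 and 3823 CPM in LSK KO, against 1522 and 1638 CPM in LSK WT. In the other population it was at 30182 and 30306 CPM in MPP KO, against 36782 and 38129 CPM in MPP WT. The groups overlapped in neither population. Mpo was 2.47-fold higher in LSK KO than in LSK WT (edgeR adjusted p = 9.16e-08) and 1.24-fold lower in MPP KO than in MPP WT (adjusted p = 0.047). The log2 difference between the effects was 1.62 (SE 0.0669, adjusted p = 3.33e-07). With spike-in scaling the difference was 2.04 and missed the threshold (adjusted p = 0.0839). LSK levels of Mpo thus stood at 12.9% of MPP levels in KO and at 4.22% in WT, and at 13.6% in the Mut libraries.

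Malat1, a long nuclear noncoding RNA, showed the opposite reversal. It was at 9895 and 9770 CPM in LSK KO, against 11817 and 12633 CPM in LSK WT, and at 2781 and 2771 CPM in MPP KO, against 1714 and 1960 CPM in MPP WT. Again no library of KO lay within the range of WT. The fall in LSK KO was 1.24-fold (edgeR adjusted p = 0.0362) and the rise in MPP KO 1.51-fold (adjusted p = 0.0119), with a log2 difference between the effects of -0.91 (SE 0.0914, adjusted p = 0.00273). Scaling the libraries by their spike-in RNA ended the call (log2 difference -0.48, adjusted p = 0.68).

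**Figure D2:**
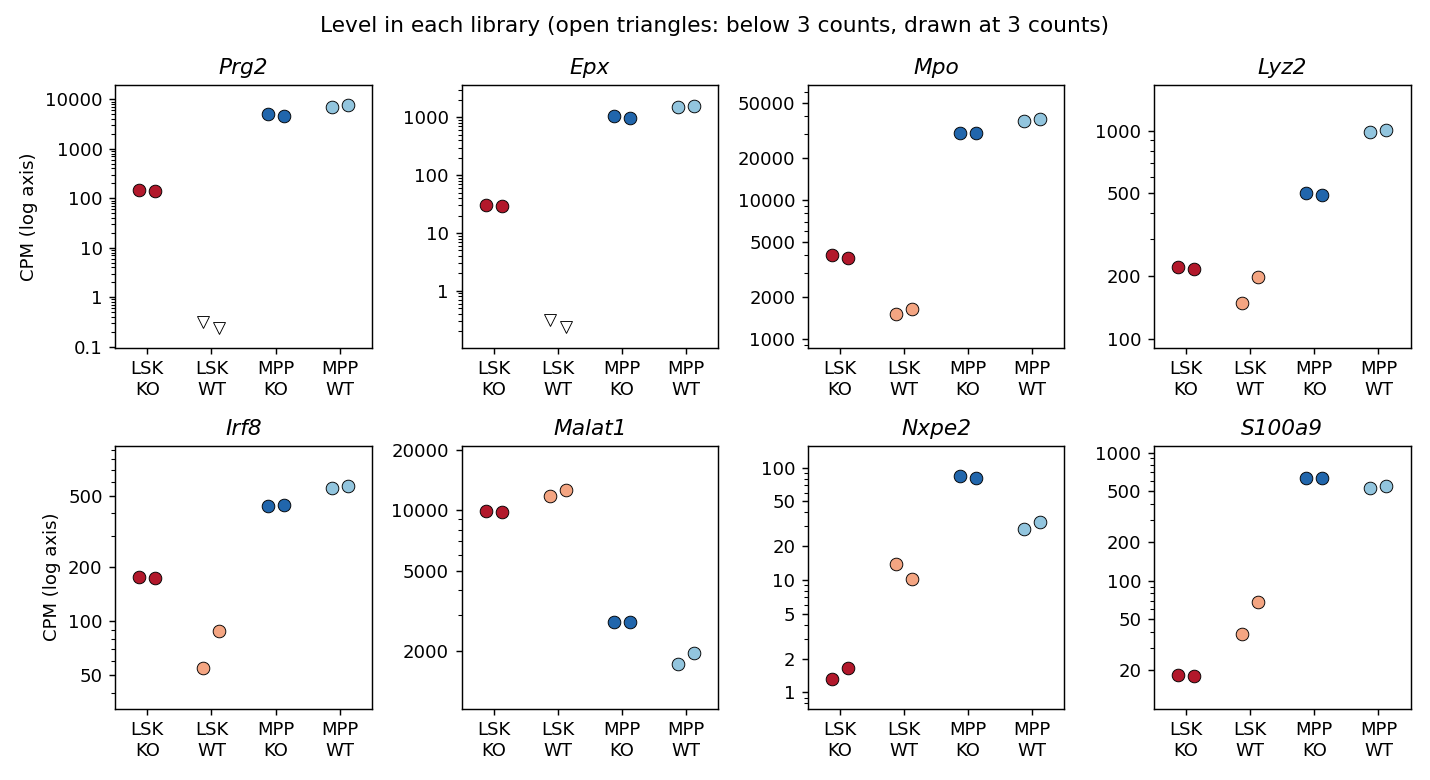
The level of 8 genes is given in CPM on a log axis, with a point for each of the 2 libraries of LSK KO, LSK WT, MPP KO and MPP WT. Prg2, Epx, Mpo and Irf8 are higher in LSK KO than in LSK WT and lower in MPP KO than in MPP WT; Malat1, Nxpe2 and S100a9 have the reverse order; open triangles mark libraries with fewer than 3 counts, drawn at 3 counts.

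The eosinophil granule genes Prg2 and Epx gave the largest differences of the 102, with groups at 3 or fewer counts set to 3. Prg2, the major basic protein of the eosinophil granule, was at 144 and 137 CPM in LSK KO, against 0 and 0.159 CPM in LSK WT, and at 4932 and 4527 CPM in MPP KO, against 6921 and 7726 CPM in MPP WT. Epx was at 30.1 and 28.9 CPM in LSK KO, against 0 CPM in both LSK WT libraries, and at 1053 and 992 CPM in MPP KO, against 1483 and 1561 CPM in MPP WT. Both were therefore abundant in MPP of either genotype and present in LSK of the KO pool, while LSK WT had 2 counts of Prg2 and none of Epx. Epx was at least 217-fold higher in LSK KO than in LSK WT (floor of 3 counts over the group), and the ratio for Prg2, scaled to library size, was 1555 (95% Poisson interval 430 to 12844, counting error only). The adjusted p-values of the interaction were 9.05e-08 for Prg2 and 2.63e-07 for Epx in the edgeR test. In MPP the 1.55-fold and 1.49-fold lower levels of Prg2 and Epx in KO missed the threshold (adjusted p = 0.407 and 0.148).

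Prg3, a second basic protein of the eosinophil granule, was at 7.68 and 3.66 CPM in LSK KO, against 0 CPM in both LSK WT libraries, and at 332 and 283 CPM in MPP KO, against 320 and 365 CPM in MPP WT. It was at least 43.5-fold higher in LSK KO, with overlapping levels in MPP (interaction adjusted p = 0.0316, edgeR). Ms4a2, a chain of the high-affinity IgE receptor of mast cells and basophils, was at 4.31 and 7.25 CPM in LSK KO, against 0 and 0.0797 CPM in LSK WT, and at 94.9 and 96.1 CPM in MPP KO, against 130 and 166 CPM in MPP WT (adjusted p = 0.0217). The list of eosinophil, basophil and mast cell genes had 23 members tested. Of these, 4 were called higher (Prg2, Epx, Prg3 and Ms4a2) and 1 lower, beside 0.57% and 0.157% of all genes. The lower member was Gzmb, a granule protease also made by cytotoxic lymphocytes. The median log2 difference of the list was 1.20 with groups at 3 or fewer counts set to 3, against 0.06 over all genes. The summed level of the list was 405 to 452 CPM in LSK KO, against 289 to 446 CPM in LSK WT, so that the sums overlapped, and 11754 to 12676 CPM in MPP KO, against 17557 to 19246 CPM in MPP WT. Members did not move together: Fcer1a, the IgE-binding chain of the same receptor, was at 6.80 and 3.52 CPM in LSK KO, against 15.3 and 32.9 CPM in LSK WT (interaction adjusted p = 0.215).

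The level in LSK was set beside that in MPP for the same genotype, since MPP libraries were rich in these transcripts. In KO, LSK stood at 2.98% of the MPP level for Prg2, 2.88% for Epx, 1.85% for Prg3 and 6.06% for Ms4a2. In WT the shares were 0.00109% for Prg2, 0.0269% for Ms4a2 and 0 for Epx and Prg3, and in the Mut libraries 0.267% for Prg2, 0.132% for Prg3, 2.24% for Ms4a2 and 0 for Epx. Other transcripts abundant in MPP went both ways. The share was also higher in KO for Mpo, at 12.9% in KO and 4.22% in WT, and for Lyz2, at 44.3% in KO and 17.5% in WT. For these genes the Mut libraries also lay above WT, at 13.6% for Mpo, above the KO share, and 35.2% for Lyz2. The share was lower in KO for S100a8, at 0.811% in KO and 4.36% in WT, and for S100a9, at 2.88% in KO and 9.94% in WT. In the Mut libraries it was 3.13% for S100a8 and 6.8% for S100a9. Whether RNA or cells of the MPP kind in the LSK KO pool account for the eosinophil transcripts was not tested.

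Prg2 (chr2:84980461-84983632, plus strand) and Prg3 (chr2:84988215-84993886, plus strand) are neighbours with 4582 bases between them, and Mpo (chr11:87793581-87804413, plus strand) and Epx (chr11:87864000-87875536, minus strand) lie 59586 bases apart (GENCODE M21, GRCm38, the build of the mm10 mapping). The 250 bases before the RefSeq start (GRCm38.p6) are printed for the 3 called genes of the eosinophil and mast cell group that the promoter table holds and for Mpo, since all 4 rose in LSK KO. Capitals mark matches on either strand to the core letters GATAA of the GATA factors, GAGGAA of PU.1 or TTGCNNAA of C/EBP, factors known to act on myeloid granule genes.
Epx: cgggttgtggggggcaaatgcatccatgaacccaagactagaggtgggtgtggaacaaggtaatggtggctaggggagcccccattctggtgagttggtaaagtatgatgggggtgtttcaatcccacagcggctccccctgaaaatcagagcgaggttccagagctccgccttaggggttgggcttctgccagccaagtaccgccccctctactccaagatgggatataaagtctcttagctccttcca
Prg3: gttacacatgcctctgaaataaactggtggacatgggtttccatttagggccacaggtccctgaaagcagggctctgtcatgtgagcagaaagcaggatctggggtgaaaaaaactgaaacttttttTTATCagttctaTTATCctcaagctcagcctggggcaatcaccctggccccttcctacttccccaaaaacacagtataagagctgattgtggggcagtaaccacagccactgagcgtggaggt
Ms4a2: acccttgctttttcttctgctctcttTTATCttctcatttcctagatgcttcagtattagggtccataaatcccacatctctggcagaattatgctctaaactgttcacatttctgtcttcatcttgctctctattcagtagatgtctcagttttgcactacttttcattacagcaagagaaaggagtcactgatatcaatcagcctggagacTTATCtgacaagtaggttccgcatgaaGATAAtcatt
Mpo: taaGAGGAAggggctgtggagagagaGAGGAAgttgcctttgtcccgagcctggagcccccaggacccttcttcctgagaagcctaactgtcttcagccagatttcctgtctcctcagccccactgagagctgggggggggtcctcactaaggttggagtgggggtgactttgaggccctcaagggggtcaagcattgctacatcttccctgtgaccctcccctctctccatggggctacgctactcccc
The windows are chr11:87875537-87875786 (minus strand) for Epx, chr2:84987965-84988214 (plus strand) for Prg3, chr19:11623720-11623969 (minus strand) for Ms4a2 and chr11:87793534-87793783 (plus strand) for Mpo. The RefSeq start of Mpo lies downstream of its GENCODE start, so its window lies within the GENCODE gene from base 87793581 on. GATAA occurred 2 times before Prg3 and 3 times before Ms4a2, GAGGAA 2 times before Mpo, and none of the 3 motifs before Epx. Over the called genes with a window, GATAA was found for 8.82% of 68 higher and 23.8% of 21 lower genes, against 15.2% of 10805 genes tested. GAGGAA was found for 22.1% of the higher and 38.1% of the lower genes, against 22.6% of all, and TTGCNNAA for 7.35% and 9.52%, against 7.67%. The higher genes thus held the motifs at or below the share of all promoters.

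The list of granulocyte-monocyte progenitor genes had the most calls of the 27 lists. Of 25 members tested, 11 were called higher (Mpo, Nkg7, Irf8, Cst7, Igsf6, Ly6c2, Cebpe, Ctsg, Ms4a3, Srgn and Plac8) and 0 lower, beside 0.57% and 0.157% of all genes. The median log2 difference of the list was 0.78, against 0.08 over all genes, and its summed level was 8562 to 9104 CPM in LSK KO, against 4897 to 5475 CPM in LSK WT, and 58184 to 58186 CPM in MPP KO, against 71060 to 74939 CPM in MPP WT. Mpo alone makes up much of these sums. Of the 11, all but Srgn also passed the threshold for KO against WT in LSK (Srgn adjusted p = 0.0621, edgeR), and Mpo alone passed it in MPP.

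Irf8, a transcription factor that directs progenitors to monocytes and dendritic cells, was at 177 and 175 CPM in LSK KO, against 55.0 and 88.8 CPM in LSK WT, and at 441 and 444 CPM in MPP KO, against 557 and 566 CPM in MPP WT. Its level in LSK KO rose 2.44-fold (edgeR adjusted p = 0.00701), and its lower level in MPP KO did not pass (adjusted p = 0.981). Cebpe, the transcription factor of terminal granulocyte maturation, was at 6.30 and 1.80 CPM in LSK KO, against 0.211 and 0.0797 CPM in LSK WT, a level near the floor, and at 58.7 and 65.0 CPM in MPP KO, against 90.2 and 94.0 CPM in MPP WT. Ctsg, the granule protease cathepsin G, was at 298 and 283 CPM in LSK KO, against 127 and 184 CPM in LSK WT, and at 2440 and 2272 CPM in MPP KO, against 2780 and 3310 CPM in MPP WT. The groups did not overlap for any of these genes in either population.

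Ly6c2, a surface antigen of monocytes, was at 81.5 and 73.1 CPM in LSK KO, against 4.75 and 16.4 CPM in LSK WT, whereas MPP KO with 1812 and 1904 CPM overlapped with MPP WT at 1868 and 1885 CPM. Its difference therefore came from LSK (log2 difference between the effects 2.85, SE 0.462, edgeR adjusted p = 0.0319), and reads shared with its near-identical neighbour Ly6c1 make its level uncertain. Lyz2, the lysozyme of monocytes and macrophages, had the reverse balance. It was at 222 and 217 CPM in LSK KO, against 149 and 199 CPM in LSK WT, and at 502 and 490 CPM in MPP KO, against 981 and 1006 CPM in MPP WT. The 2.00-fold fall in MPP KO passed the threshold (adjusted p = 0.0272) and the 1.26-fold difference in LSK did not (adjusted p = 0.208). Of 23 genes of the macrophage and monocyte list, Lyz2 and Cx3cr1 were called higher and 0 lower, beside 0.57% and 0.157% of all genes.

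Nkg7, a granule membrane protein of cytotoxic and myeloid cells, was at 395 and 400 CPM in LSK KO, against 235 and 270 CPM in LSK WT, and at 1065 and 1023 CPM in MPP KO, against 1307 and 1384 CPM in MPP WT (log2 difference 1.02, SE 0.13, edgeR adjusted p = 0.0159). Cst7, an inhibitor of lysosomal cathepsins, differed by 1.40 (SE 0.219) and Napsa, an aspartic protease, by 1.05 (SE 0.141). Smaller differences of 0.78 to 0.95 were found for Plac8, Srgn, which holds granule contents, and Ms4a3, a marker of granulocyte-monocyte progenitors. Add2, a subunit of the adducin of the red cell skeleton, and Golm1, a Golgi membrane protein, differed in size and not in sign. Golm1 was at 65.5 and 64.3 CPM in LSK KO, against 3.17 and 5.18 CPM in LSK WT, and at 133 and 95.4 CPM in MPP KO, against 58.9 and 56.0 CPM in MPP WT. It was 15.4-fold higher in LSK KO and 1.99-fold higher in MPP KO, the last without passing the threshold (edgeR adjusted p = 0.692). Add2 was at 9.23 and 7.11 CPM in LSK KO, against 0 CPM in LSK WT (at least 61.0-fold), and at 121 and 151 CPM in MPP KO, against 35.4 and 51.2 CPM in MPP WT.

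B2m and H2-D1 of MHC class I were called higher; they belong to none of the 27 lists and were chosen after their values were seen. B2m, the light chain of MHC class I, was at 2792 and 2564 CPM in LSK KO, against 1653 and 1854 CPM in LSK WT, and at 1921 and 1902 CPM in MPP KO, against 1947 and 2018 CPM in MPP WT. H2-D1, a class I heavy chain with close relatives whose reads can be shared, was 1.38-fold higher in LSK KO (edgeR adjusted p = 0.00755) with a log2 difference between the effects of 0.54 (SE 0.0928, adjusted p = 0.037). Of 56 interferon response genes tested, 3 were called higher and 0 lower, beside 0.57% and 0.157% of all genes. The median difference of the list was 0.39, against 0.08 over all genes. Tap1 and Psmb9, which serve MHC class I loading and are on that list, were not called, with log2 differences of 0.03 and 0.34 (edgeR, unadjusted p = 0.867 and 0.155). Ly6e, an interferon-induced surface protein, was at 1342 and 1390 CPM in LSK KO, against 844 and 926 CPM in LSK WT, and at 1854 and 1750 CPM in MPP KO, against 2108 and 2256 CPM in MPP WT. Ifi47, an interferon-induced GTPase, was at 125 and 110 CPM in LSK KO, against 55.5 and 53.8 CPM in LSK WT, and at 83.4 and 57.7 CPM in MPP KO, against 99.0 and 101 CPM in MPP WT. The third, Ifi209, was at a low level in LSK WT, with 21.2 and 16.9 CPM in LSK KO, against 0 and 0.797 CPM in LSK WT; its reads can be shared with related genes of the family.

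Pdia4, a disulfide isomerase of the endoplasmic reticulum, was at 121 and 125 CPM in LSK KO, against 70.4 and 59.6 CPM in LSK WT, and at 278 and 247 CPM in MPP KO, against 336 and 314 CPM in MPP WT (log2 difference 1.23, SE 0.199, edgeR adjusted p = 0.0319). Ddost, a subunit of the oligosaccharyl transferase, Spcs2, of the signal peptidase, Tram1, of the translocon, and Surf4, a cargo receptor, were also called higher, by 0.84 to 1.26; these 4 were picked after their values were seen. In the list of heat shock and unfolded protein genes, Pdia4 was the single call among 33 members, beside 0.727% of all genes. The list's median was -0.01, against 0.08 over all genes. Other chaperones of the endoplasmic reticulum on that list were not called, with log2 differences of 0.06 for Hspa5, -0.10 for Hsp90b1 and 0.12 for Pdia6 (edgeR adjusted p = 0.894, 0.865 and 0.796).

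Among genes of the stem and lymphoid-primed lists, 2 of 30 and 2 of 21 were called higher and 0 lower, beside 0.57% and 0.157% of all genes. The stem list did not move together. At an unadjusted p below 0.05, 2 of its members were higher and 3 lower, and its median log2 difference was 0.03. Its summed level was lower in LSK KO, at 4059 to 4201 CPM, against 4534 to 4596 CPM in LSK WT. Ly6a, which encodes the Sca-1 antigen on which LSK cells are sorted, was at 163 and 150 CPM in LSK KO, against 93.3 and 58.4 CPM in LSK WT, and at 10.4 and 10.5 CPM in MPP KO, against 17.6 and 17.3 CPM in MPP WT. Since the gate uses its product, the level in LSK is not independent of the sort. Ifitm1, an interferon-induced membrane protein, differed by 1.13 (SE 0.215, edgeR adjusted p = 0.0436). Ccr9, the chemokine receptor of thymus-seeding progenitors, was at 11.3 and 5.89 CPM in LSK KO, against 1.06 and 1.20 CPM in LSK WT, and at 7.80 and 6.08 CPM in MPP KO, against 21.8 and 25.4 CPM in MPP WT. Its level was 7.57-fold higher in LSK KO (edgeR adjusted p = 0.0497) and 3.40-fold lower in MPP KO (adjusted p = 0.811). Ets1, a transcription factor of lymphoid cells, was at 27.5 and 26.7 CPM in LSK KO, against 12.7 and 11.3 CPM in LSK WT, and at 69.8 and 88.8 CPM in MPP KO, against 127 and 134 CPM in MPP WT.

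In 18 of the 80 higher genes both LSK WT libraries were at 0, and in these the difference rests on detection. By the naming rule they include Arhgef11 at 11.6 and 22.0 CPM in LSK KO (at least 118-fold), Pik3r6, a regulatory subunit of PI3-kinase gamma (at least 85.5-fold), Polh, a translesion DNA polymerase (at least 64.4-fold), Ehd3, of endosome recycling (at least 58.4-fold), and Siglech, of plasmacytoid dendritic cells (at least 32.5-fold). The chemokine receptors Cxcr3 and Cx3cr1 were at least 24.3-fold and 18.1-fold higher, Dram1, a lysosomal membrane protein, at least 22.5-fold, and Ncr1, a receptor of natural killer cells, at least 11.2-fold. Csf1, the macrophage growth factor, was at 8.56 and 5.96 CPM in LSK KO, against 0.844 and 0.0797 CPM in LSK WT. The 2 LSK WT libraries were also those with the fewest detected genes, and among genes that averaged 50 or more counts, 422 were at 0 in exactly 1 of the pair, against 104 to 136 in the other groups; the part of this in the calls was not tested. Hnf4a and Hoxa10 had the zeros in MPP KO. Hoxa10, a homeobox gene of stem cells, was at 25.2 and 18.5 CPM in LSK KO, against 13.7 and 19.1 CPM in LSK WT, and at 0 CPM in MPP KO, against 2.53 and 1.10 CPM in MPP WT, at least 17.2-fold lower in MPP KO (edgeR adjusted p in MPP 0.0745). Hnf4a, a nuclear receptor best known from liver, was at least 46.5-fold lower in MPP KO, with 0 CPM, against 6.06 and 4.10 CPM in MPP WT (adjusted p in MPP 0.0944).

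The 22 lower genes were for the most part lower in LSK KO. Immediate early genes respond to signals and to handling of cells within minutes. Of 47 members tested, 3 were called lower and 0 higher, beside 0.157% and 0.57% of all genes. At an unadjusted p below 0.05, 18 were lower and 0 higher, against 619 lower and 1115 higher of all 14033 genes. Their median log2 difference was -0.74, against 0.08 over all genes, and -0.32 with spike-in scaling, against 0.51. Nr4a1, an orphan nuclear receptor, was at 210 and 199 CPM in LSK KO, against 352 and 397 CPM in LSK WT, and at 123 and 136 CPM in MPP KO, against 113 and 105 CPM in MPP WT. Per1, a clock component, fell 2.61-fold in LSK KO (edgeR adjusted p = 0.0232), and Ppp1r15a, a regulator of the stress response, fell 1.52-fold (adjusted p = 0.0152). Neither passed the threshold in MPP, where their levels in KO were 1.45-fold and 1.17-fold those in WT (adjusted p = 0.981 for each).

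Of 85 ribosomal protein genes, Rplp1 and Rps21 were called lower and 0 higher, beside 0.157% and 0.57% of all genes. Rplp1, of the ribosomal stalk, was at 966 and 837 CPM in LSK KO, against 1702 and 1787 CPM in LSK WT, and at 470 and 478 CPM in MPP KO, against 412 and 445 CPM in MPP WT. Processed copies of these genes in the genome can take part of their reads. The median of the list was -0.31, against 0.08 over all genes. With spike-in scaling these medians were 0.10 and 0.51. The sign for the family thus depends on the scaling, while its median lay below that of all genes under both. Kcnq1ot1, an imprinted noncoding RNA that runs antisense to Kcnq1, was at 262 and 270 CPM in LSK KO, against 352 and 353 CPM in LSK WT, and at 74.8 and 84.5 CPM in MPP KO, against 39.2 and 43.8 CPM in MPP WT. Neither population passed on its own (adjusted p = 0.267 in LSK and 0.186 in MPP, edgeR), and as the strand setting of the counting is not given in the sources used here, its reads and those of Kcnq1 cannot be told apart.

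Of the late neutrophil genes, S100a8 and S100a9 went the other way from Mpo in LSK. S100a8, a subunit of calprotectin, was at 15.7 and 8.26 CPM in LSK KO, against 40.5 and 85.1 CPM in LSK WT, and at 1465 and 1489 CPM in MPP KO, against 1407 and 1477 CPM in MPP WT, where the groups overlapped. Its partner S100a9 was at 18.2 and 18.0 CPM in LSK KO, against 38.4 and 68.6 CPM in LSK WT, and at 630 and 631 CPM in MPP KO, against 532 and 544 CPM in MPP WT. They were the 2 calls among 18 members, both lower, beside 0.157% of all genes. S100a8 and S100a9 fell 5.22-fold and 2.96-fold in LSK KO (edgeR adjusted p = 0.00755 for each). The list as a whole had no common direction. The difference was positive for 11 of the 18 members, against 7578 of all 14033 genes. The median was 0.30 as fitted and -0.10 with groups at 3 or fewer counts set to 3. At an unadjusted p below 0.05, 2 members were higher and 4 lower, against 1115 higher and 619 lower of all genes. The 2 higher members were Lcn2, an iron-binding granule protein, and Retnlg, a resistin-like protein, both at 0 CPM in LSK WT and uncalled (adjusted p = 0.232 and 0.282). Nxpe2, of a family of secreted or membrane proteins, was at 1.33 and 1.65 CPM in LSK KO, against 13.8 and 10.2 CPM in LSK WT, and at 84.9 and 81.3 CPM in MPP KO, against 28.6 and 33.1 CPM in MPP WT. It fell 8.05-fold in LSK KO (adjusted p = 0.0114), with a 2.69-fold higher level in MPP KO that did not pass the threshold (adjusted p = 0.644). Gzmb, granzyme B, was at 2.04 and 3.38 CPM in LSK KO, against 25.4 and 62.2 CPM in LSK WT, and at 22.4 and 30.0 CPM in MPP KO, against 44.4 and 41.5 CPM in MPP WT, lower in KO in both.

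Cdc7, a kinase that starts DNA replication, was at 101 and 89.0 CPM in LSK KO, against 219 and 205 CPM in LSK WT, and at 106 and 71.8 CPM in MPP KO, against 60.1 and 63.8 CPM in MPP WT. Cdc16, a subunit of the anaphase-promoting complex, differed by -1.34 (SE 0.222, edgeR adjusted p = 0.0326). The cell cycle list, with 44 members tested, had 0 calls. At an unadjusted p below 0.05, 5 members were higher and 4 lower, beside 1115 higher and 619 lower of all 14033 genes. Tfr2, a transferrin receptor of the liver and erythroid cells, was at 115 and 116 CPM in LSK KO, against 170 and 211 CPM in LSK WT, and at 270 and 280 CPM in MPP KO, against 189 and 174 CPM in MPP WT. Mfsd2b, a sphingosine-1-phosphate exporter of red cells and platelets, fell 2.72-fold in LSK KO (adjusted p = 0.00973), and Nedd9, a scaffold protein of adhesion signalling, fell 6.45-fold (adjusted p = 0.00755). Tbrg3 and Sstr2 had their zeros in MPP WT. Tbrg3 was at 6.03 and 6.55 CPM in MPP KO, against 0 CPM in MPP WT (at least 52.4-fold), and Sstr2, a somatostatin receptor, was at 2.21 and 2.18 CPM in MPP KO, against 0 CPM in MPP WT (at least 18.3-fold).

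**Figure D3:**
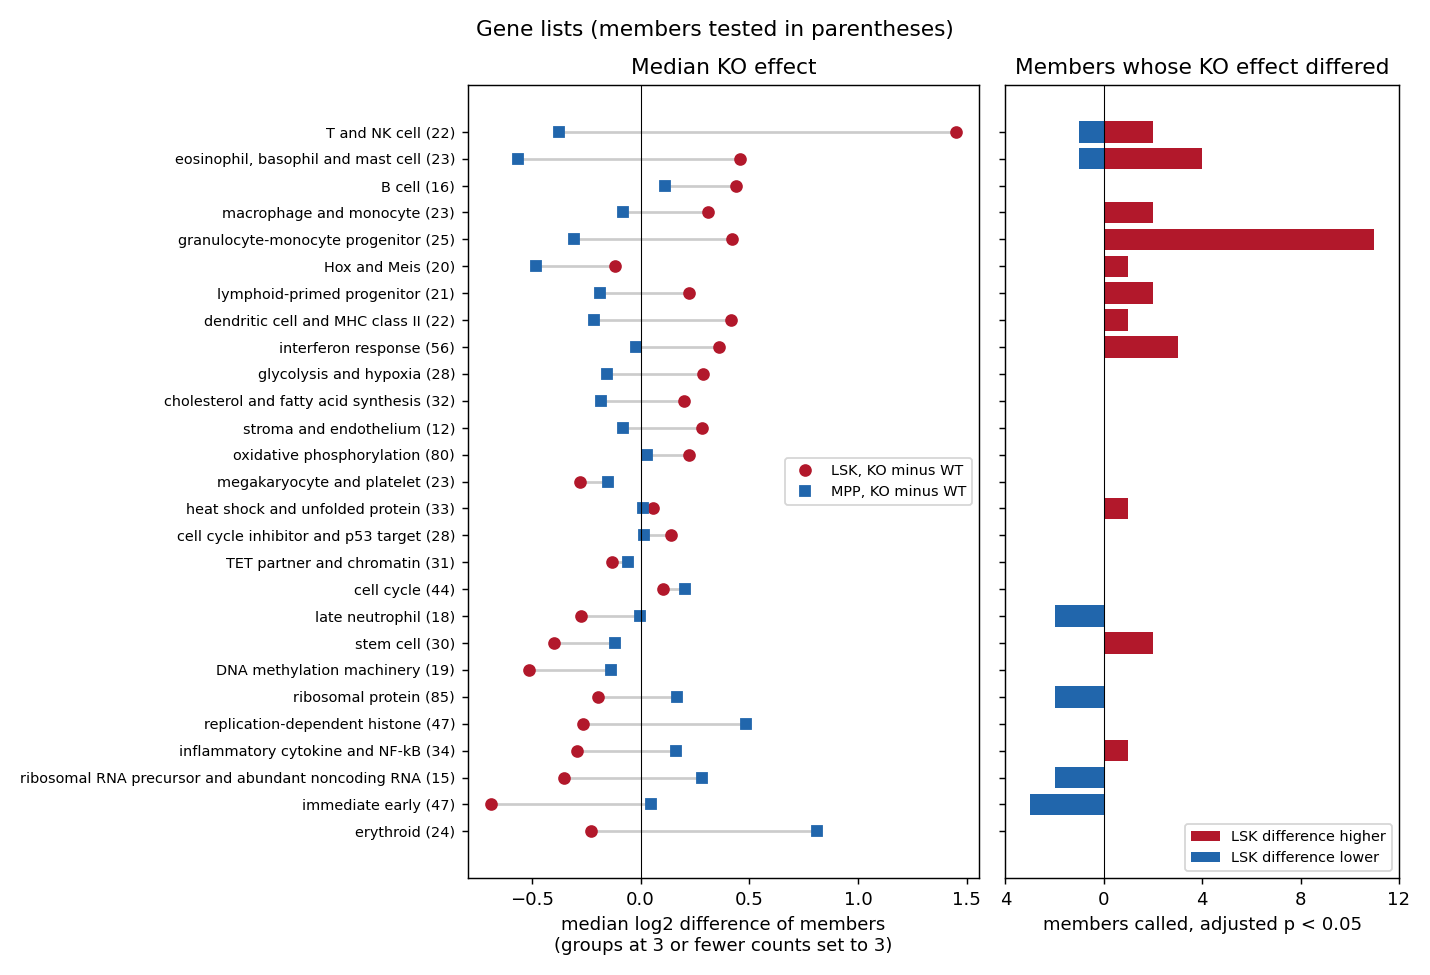
For 27 gene lists, the left panel gives the median log2 difference of KO from WT in LSK (circles) and MPP (squares), groups at 3 or fewer counts being set to 3, and the right panel the number of members called higher or lower at an adjusted p below 0.05. Granulocyte-monocyte progenitor genes have the most calls, 11 of 25, and the erythroid list has the lowest median difference with 0 calls.

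Several lists had no or few called members. No erythroid gene was called by edgeR among 24 tested, yet 9 were lower and 1 higher at an unadjusted p below 0.05. Over all 14033 genes tested, 619 were lower and 1115 higher at that unadjusted level. The erythroid list had the lowest median, -0.89 with groups at 3 or fewer counts set to 3. Its median was -0.80 as fitted, against 0.08 over all genes, and -0.42 with spike-in scaling, against 0.51. The nearest to the threshold was Car2, the red cell carbonic anhydrase, at 915 and 867 CPM in LSK KO, against 757 and 893 CPM in LSK WT, and at 1989 and 2080 CPM in MPP KO, against 1182 and 1273 CPM in MPP WT (interaction adjusted p = 0.0507); it rose 1.66-fold in MPP KO (adjusted p = 0.0194). The summed level of the erythroid list was 7866 to 7942 CPM in MPP KO, against 4675 to 5086 CPM in MPP WT, and overlapped between KO and WT in LSK. In MPP KO, erythroid genes were thus higher in sum while the granulocyte-monocyte list was lower. The T and NK cell list had the highest median (1.41 with groups at 3 or fewer counts set to 3). Of its 22 members tested, Nkg7 and Ncr1 were called higher and Gzmb lower, beside 0.57% and 0.157% of all genes. For the DNA methylation machinery (19 tested), the Tet2 partners and chromatin regulators (31), the replication-dependent histones (47) and the oxidative phosphorylation subunits (80), edgeR called none, with 1, 3, 1 and 14 higher and 4, 1, 2 and 1 lower members at an unadjusted p below 0.05.

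Because the level of many of these genes differs between LSK and MPP, the called genes were also looked up in the Mut libraries. Their levels do not enter the KO effects, but they entered the estimate of the spread that decided the calls, so the set of called genes is not independent of them. This measure was chosen after the calls were seen. Of the 80 higher genes, 47 had a higher level in MPP Mut than in LSK Mut (edgeR adjusted p below 0.05), against 5.21% of all genes tested, and 5 a lower level, against 3.55% of all. Of the 22 lower genes, 6 were higher and 1 was lower in MPP Mut than in LSK Mut. In these Mut libraries, most of the genes called higher thus had a higher level in MPP than in LSK. Epx was at 604 and 607 CPM in MPP Mut, against 0 CPM in both LSK Mut libraries. Mpo was at 33875 and 32397 CPM in MPP Mut, against 4662 and 4333 CPM in LSK Mut.

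The number of called genes depended strongly on the libraries. The calls of Prg2, Epx, Mpo and Malat1 held when any of the 8 libraries was left out, and these were the only 4 of the 102 to do so. Leaving out an MPP library left 4 to 7 called genes and leaving out an LSK KO library 12 to 24, while without an LSK WT library 813 to 903 were called. When the spread was estimated from the 8 libraries alone, 7 genes were called, and with spike-in scaling, under which the median difference of all genes was 0.51, against 0.08 with the main scaling, only Prg2 and Epx were. Spike-ins made up 0.147% to 0.160% of counted reads in LSK KO and 0.193% to 0.229% in LSK WT. In MPP they made up 3.18% to 3.45% in KO and 3.16% to 3.53% in WT. Among 46 called genes chosen for naming, no sign was reversed in any of the 17 alternatives. These genes were picked by their calls and the alternatives refit the same counts, so the kept signs give the calls no support. The number of the 46 that stayed called ran from 2 with spike-in scaling to all 46 with DESeq2. Of the 102 genes, 83 had effects of opposite sign with spike-in scaling, against 87 with the main scaling.

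**Figure D4:**
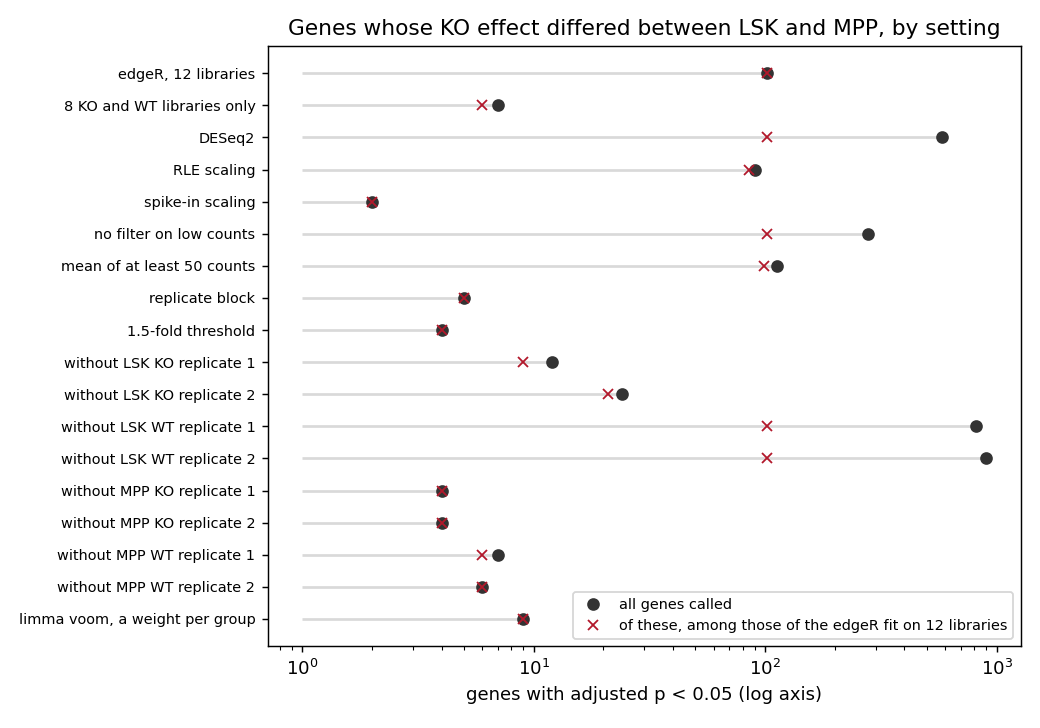
Each row is a processing choice, with the number of genes called for the difference of the KO effect between LSK and MPP as a dark dot on a log axis, and a red cross for how many of these are among the 102 genes of the edgeR test on 12 libraries. The counts run from 2 with spike-in scaling to 903 without LSK WT replicate 2.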

How the data were processed

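RNA of sorted LSK and MPP cells was amplified and barcoded, with ERCC spike-in RNAs added, per the labels' protocols. The submitters' processing notes name Trim Galore 0.4.1, TopHat2 2.0.13, HTSeq 0.6.1, Cufflinks and the mm10 genome; the strand setting and annotation are not given in the sources used here. The deposited tables hold raw read counts per gene symbol, unscaled, with 92 spike-in rows and 24538 genes. The column of MPP KO replicate 2 carries the leading library number of replicate 1 and was assigned by the rest of its name, which matches no other sample.

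The LSK and MPP tables were joined by symbol. Counts were tested with edgeR 4.0.16 (TMM scaling, filterByExpr with minimum count 10 and minimum total 15, a mean per group, quasi-likelihood test, 6 residual degrees of freedom) over all 12 libraries. P-values are two-sided and adjusted over all genes tested. CPM use the TMM-scaled library size. A group at 0 was given 3 counts for a fold, which is then a lower bound; intervals and floors cover counting error only, since amplified reads counted here carry no stated molecular identifiers. Symbols matched GENCODE M21 for 13754 of 14033 genes and the RefSeq promoter table for 10805 (first start listed per gene).

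Genes named in each direction are the 12 with the largest differences, without predicted genes and clones, whose highest group averages at least 100 counts and in which no group has a library at 0 beside one of at least 10 counts; up to 6 with opposed effects and up to 4 per list were added, and others named were chosen after their values were seen. The 27 lists and the genes of interest were chosen with earlier results of these data known. Alternatives were DESeq2, RLE and spike-in scaling, filters, a replicate block, a 1.5-fold threshold, leaving out libraries, and limma voom with a weight per group, the last chosen after seeing the data.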

Additional observations from a re-analysis of the deposited data

Results flagged for a closer look

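The genes below were singled out because the test of the difference itself found unequal KO effects in LSK and MPP (edgeR interaction, adjusted p below 0.05). The values are log2 differences, the KO effect in LSK minus that in MPP. Among genes with counts in every group the difference was positive at 4.69 for Ccr9, 1.79 for Ly6a, 1.13 for Ifitm1, 1.89 for Ets1, 1.62 for Mpo, 1.02 for Nkg7, 1.63 for Irf8, 1.40 for Cst7, 1.34 for Lyz2, 0.90 for Ly6e, 1.60 for Ifi47, 6.16 for Ifi209, 4.41 for Csf1 and 1.23 for Pdia4. It was negative at -4.44 for Nxpe2, -3.31 for Gzmb, -2.77 for Nedd9, -2.42 for S100a8, -1.92 for Per1, -1.79 for S100a9, -1.68 for Cdc7, -1.65 for Mfsd2b, -1.35 for Kcnq1ot1, -1.34 for Cdc16, -0.83 for Ppp1r15a, -1.12 for Nr4a1, -0.91 for Malat1, -1.10 for Rplp1 and -1.11 for Rps21. Where a group had 3 or fewer counts it was set to 3, and the difference was 8.33 for Epx, 10.63 for Prg2, 6.96 for Arhgef11, 6.39 for Polh, 5.80 for Cxcr3, 5.77 for Pik3r6, 5.84 for Hnf4a, 5.57 for Siglech, 5.58 for Prg3, 5.34 for Ehd3, 5.0 for Dram1, 5.0 for Cx3cr1, 5.95 for Ms4a2, 3.58 for Ncr1 and 4.52 for Hoxa10, and -6.65 for Tbrg3 and -3.80 for Sstr2. The 4 that were called when any of the 8 libraries was left out are Prg2, Epx, Mpo and Malat1.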

How the results depend on the processing

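The main counts were 102 genes with unequal KO effects, 87 of them opposed, 272 genes for KO against WT in LSK and 15 in MPP. In that order, the counts were 7, 7, 85 and 0 with the spread taken from the 8 KO and WT libraries (edgeR; in MPP 578 genes had an unadjusted p below 0.05), 584, 497, 1107 and 100 with DESeq2, and 278, 232, 623 and 49 with no filter on low counts. They were 2, 2, 166 and 1 with spike-in scaling and 4, 3, 69 and 1 with a 1.5-fold threshold. With RLE scaling 90, 75 and 267 were called, and 5 in MPP. Limma voom with a weight per group, added after seeing the data, gave 9, 9, 20 and 102. Leaving out 1 library gave 4 to 903 genes with unequal effects, 4 to 686 opposed, 88 to 1378 in LSK and 1 to 33 in MPP. The lowest interaction counts came without either MPP KO library and the highest, 813 and 903, without LSK WT replicate 1 or 2. The replicate block gave 5, 5, 143 and 1; same-numbered libraries did not deviate together (r from -0.05 to 0.04 between groups), so the numbers do not pair the samples. Higher against lower calls split 80 to 22 in the main test, 63 to 27 with RLE scaling, 370 to 214 with DESeq2 and 2 to 0 with spike-in scaling. All 102 genes were also called by DESeq2, with no filter and without either LSK WT library; none was called under every setting other than the 1.5-fold threshold. Prg2 and Epx missed the threshold under limma voom alone (adjusted p = 0.646 and 0.182), and Mpo with spike-in scaling alone (adjusted p = 0.0839). The causes of these shifts were not tested. For genes at 0 in LSK WT, the counts of its 2 libraries set only the lower bound of the fold, and why these genes were at 0 was not tested.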
